A study of Mus musculus with 2 samples.

Results

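The interleukin-1 and interleukin-33 system is described here through 10 of the 56953 genes in the deposited tables. The members were chosen by symbol, and all 10 were found: the ligands Il33, Il1a, Il1b and Il18, the antagonist Il1rn, the receptors Il1r1, Il1rl1 and Il1rl2, the decoy receptor Il1r2 and the shared receptor chain Il1rap. Dissociated cells of tissue labelled olfactory epithelium from 2 male wildtype C57BL/6J mice were captured in droplets after enzymatic digestion, red cell lysis and sieving, with 1 library for each animal (mouse 1 and mouse 2). No allele, treatment or age is given in the sources used here, so the comparisons are between cell classes of the same 2 animals. Where n = 2 is printed, it counts these mice, and the SD is over them.

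Mouse 1 gave 12537 cells and mouse 2 gave 8930 that passed the filters, with a median of 3884 and 5241 unique molecular identifier counts (UMIs) per cell. Cells were grouped into classes named from marker genes, and "-like" marks a name that rests on those markers alone. Fibroblast-like cells made up 40.6% of mouse 1 and 46.8% of mouse 2, and cartilage or bone-like cells made up 40.6% and 33.5%. The olfactory lineage that the tissue label implies formed no class. Over all cells of mouse 1 and mouse 2, the markers of mature olfactory neurons summed to 3.3 and 4.06 CPM (UMIs scaled to a common total). Free RNA, read from droplets with up to 50 UMIs, held 4.21 and 4.51 CPM of them. Markers of immature olfactory neurons summed to 30.3 and 31.7 CPM, against 27.1 and 28.6 CPM in free RNA. Sustentacular markers summed to 8.54 and 6.2 CPM, against 7.11 and 11.5 CPM. Markers of macrophages, which did form a class, summed to 18.2 and 43.6 CPM, against 23.2 and 54.6 CPM in free RNA. These sums therefore cannot show that a lineage is absent. The classes described are stromal, vascular, immune, Schwann-like, skeletal muscle-like and keratin-positive epithelial-like cells. The libraries shared 387 cell barcodes, and 178 of the 296 blood endothelial-like cells of mouse 1 came from clusters found almost only in that mouse. Neutrophil-like cells numbered 154 in mouse 1 and 21 in mouse 2, so values of that class in mouse 2 rest on few cells.

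Interleukin-1 alpha and interleukin-1 beta, the products of Il1a and Il1b, bind the receptor encoded by Il1r1, which then pairs with the chain encoded by Il1rap to signal through MYD88 and NF-kB. Il1rn encodes an antagonist that occupies the same receptor without signalling, and Il1r2 encodes a receptor that binds ligand but has no signalling domain. Interleukin-33, the product of Il33, is an alarmin stored in the nucleus of stromal and epithelial cells, and its receptor ST2, encoded by Il1rl1, also pairs with IL1RAP and is known from mast cells and group 2 innate lymphoid cells. Il1rl2 encodes the receptor of the interleukin-36 cytokines, and Il18 encodes a ligand that uses its own receptor pair and, like interleukin-1 beta, is made as a precursor that caspase-1 cleaves.

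The 4 receptor genes Il1r2, Il1r1, Il1rl2 and Il1rl1 lie in that order on chromosome 1, all on the plus strand, Il1a, Il1b and Il1rn lie on chromosome 2, Il18 on chromosome 9, Il1rap on chromosome 16 and Il33 on chromosome 19. The tables list the receptors as Il1r2 (ENSMUSG00000026073), Il1r1 (ENSMUSG00000026072), Il1rl2 (ENSMUSG00000070942), Il1rl1 (ENSMUSG00000026069) and Il1rap (ENSMUSG00000022514). The ligands and the antagonist are Il33 (ENSMUSG00000024810), Il1a (ENSMUSG00000027399), Il1b (ENSMUSG00000027398), Il18 (ENSMUSG00000039217) and Il1rn (ENSMUSG00000026981). RefSeq promoter windows of build GRCm38.p6, each 300 bases long from 250 bases before to 50 bases after a start site, matched all 10 members by symbol and gave 15 windows. The windows printed belong to the 4 members whose levels in cartilage or bone-like cells lay farthest below those in fibroblast-like cells. Window 2 of Il33, at chr19:29945540-29945839, held none of the motifs named below and is not printed. Capitals mark 2 motifs searched on both strands, GATAA (the core of GATA factor sites) and GGAANTTCC (a kappaB-like palindrome), and no 2 marked motifs overlap in these windows.
Il33 window 1, chr19:29924863-29925162, plus strand: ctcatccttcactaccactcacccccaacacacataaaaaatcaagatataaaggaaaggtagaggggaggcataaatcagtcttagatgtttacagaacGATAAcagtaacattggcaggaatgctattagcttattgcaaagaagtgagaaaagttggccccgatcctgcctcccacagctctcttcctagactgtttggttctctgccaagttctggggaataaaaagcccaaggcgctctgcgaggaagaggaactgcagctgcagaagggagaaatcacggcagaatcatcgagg
Il1r2 window, chr1:40085843-40086142, plus strand: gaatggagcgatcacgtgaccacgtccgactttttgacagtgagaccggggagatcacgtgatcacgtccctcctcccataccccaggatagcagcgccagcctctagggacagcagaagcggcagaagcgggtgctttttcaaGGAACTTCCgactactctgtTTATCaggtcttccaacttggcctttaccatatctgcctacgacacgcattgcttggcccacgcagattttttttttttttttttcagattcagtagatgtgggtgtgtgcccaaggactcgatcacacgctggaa
Il1rl2 window, chr1:40324339-40324638, plus strand: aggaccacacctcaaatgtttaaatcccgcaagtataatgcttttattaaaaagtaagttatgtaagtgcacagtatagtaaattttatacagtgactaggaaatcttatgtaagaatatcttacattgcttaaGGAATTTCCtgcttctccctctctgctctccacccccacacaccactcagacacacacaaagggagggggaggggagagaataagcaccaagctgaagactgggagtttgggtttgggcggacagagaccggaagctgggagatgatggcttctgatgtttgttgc
Il1rl1 window 1, chr1:40429320-40429619, plus strand: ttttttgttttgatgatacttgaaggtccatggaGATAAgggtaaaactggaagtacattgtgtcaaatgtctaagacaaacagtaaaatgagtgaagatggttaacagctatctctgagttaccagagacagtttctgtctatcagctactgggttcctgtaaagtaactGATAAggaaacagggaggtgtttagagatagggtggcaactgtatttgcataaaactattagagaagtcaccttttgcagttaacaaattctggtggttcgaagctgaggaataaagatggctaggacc
Il1rl1 window 2, chr1:40439379-40439678, plus strand: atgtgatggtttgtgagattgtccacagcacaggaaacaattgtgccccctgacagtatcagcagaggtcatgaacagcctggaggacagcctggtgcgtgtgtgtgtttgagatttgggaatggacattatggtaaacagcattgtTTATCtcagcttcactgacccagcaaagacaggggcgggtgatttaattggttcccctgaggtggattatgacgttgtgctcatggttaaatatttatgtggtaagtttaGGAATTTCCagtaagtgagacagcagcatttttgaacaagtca
GGAANTTCC stood in 3 of the 15 member windows (those of Il1r2 and Il1rl2 and window 2 of Il1rl1), against 0.928% of 32851 windows of all genes. GATAA stood in 4 of the 15 (window 1 of Il33, the Il1r2 window and both Il1rl1 windows), against 25.4% of all windows. An AP-1-like motif, TGANTCA, stood in 2 of the 15, those of Il1a and window 1 of Il1rn, against 7.81% of all windows. Neither Il1r1 window, at chr1:40224830-40225129 and chr1:40266336-40266635, held any of the 3 motifs. A match describes letters in a window and is not a binding site.

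Among the ligands, Il33 was a transcript of the fibroblast-like class. Fibroblast-like cells had 109 CPM of Il33 in mouse 1 and 85.2 CPM in mouse 2 (97.0 ± 16.6 CPM, SD, n = 2), and this class held 80.4% of its UMIs while making up 43.2% of cells. Schwann-like cells had 105 and 61.3 CPM and tendon-like cells 75.5 and 38.6 CPM, and each of these 3 classes overlapped the next in this order over the mice. In Schwann-like cells of mouse 2, 26 UMIs stood in 3 cells, so that level rests on very few cells. Il33 was seen in 1.57% and 1.74% of cartilage or bone-like cells, against 18.3% and 17.3% of fibroblast-like cells, while the median UMIs per cell were 6790 and 11023.5 in cartilage or bone-like cells and 2680 and 3514 in fibroblast-like cells. Free RNA held Il33 at 36.1 and 35.2 CPM, and blood endothelial-like cells had 39.8 and 8.95 CPM. The level of free RNA is not a floor, since cartilage or bone-like cells had 2.62 and 2.69 CPM and lymphatic endothelial-like cells 6.04 and 0 CPM. Mast-like and monocyte-like cells had no Il33 UMI in either mouse.

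Il1b, the secreted pyrogenic cytokine of activated myeloid cells, stood in myeloid classes. Monocyte-like cells had 10400 and 7970 CPM of Il1b in mouse 1 and mouse 2, with a UMI in 91.5% and 96.0% of cells. Neutrophil-like cells had 9000 and 1990 CPM, seen in 98.7% and 52.4% of cells, and macrophage-like cells had 1430 and 1370 CPM, seen in 42.6% and 30.3%. The 3 classes held 38.5%, 38.2% and 13.2% of all Il1b UMIs, in the order given. All other classes of the fit had at most 24.1 CPM in either mouse, under the 183 and 81.2 CPM of free RNA, and keratin-positive epithelial-like cells had no Il1b UMI.

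Il1a, which encodes the cell-associated alarmin form of interleukin-1, was also found outside the myeloid classes. Neutrophil-like cells had 429 and 77.2 CPM of Il1a in mouse 1 and mouse 2, and keratin-positive epithelial-like cells had 28.7 and 194 CPM. The order of these 2 classes was opposite in the mice, so their levels did not separate. Monocyte-like cells followed with 117 and 63.7 CPM and macrophage-like cells with 18.6 and 36.6 CPM, while fibroblast-like cells had 0.342 and 0.28 CPM. In the GRCm38 annotation, a gene on the other strand overlaps Il1a (Gm14023), Il1b (Il1bos), Il1r2 (Gm16894), Il1rap (Gm20319) and Il18 (Bco2 and Tex12), and the sources used here do not say whether reads were counted by strand, so reads of such pairs may not be told apart.

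Il18 was low in every class, and among the classes of the fit it was highest in monocyte-like and macrophage-like cells. It reached 32.1 and 44.1 CPM in monocyte-like cells, 24.1 and 23.1 CPM in macrophage-like cells, 18.0 and 16.8 CPM in cartilage or bone-like cells and 16.2 and 12.3 CPM in fibroblast-like cells. Free RNA held 18.7 and 16.9 CPM, close to the cartilage or bone-like and fibroblast-like levels. These 2 classes held 67.0% and 25.9% of all Il18 UMIs, and the part of free RNA in their levels was not tested. T or NK-like cells had no Il18 UMI, and lymphatic endothelial-like cells had 1 UMI in mouse 1 and 0 in mouse 2.

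Il1rn, the antagonist, followed the myeloid ligands. Its level was 3780 and 340 CPM in neutrophil-like cells of mouse 1 and mouse 2, which held 73.3% of its UMIs. Monocyte-like cells had 567 and 353 CPM, macrophage-like cells 202 and 263 CPM, and keratin-positive epithelial-like cells 61.6 and 51.3 CPM. From monocyte-like to epithelial-like cells each class lay above the next in both mice, and free RNA held 41.6 and 6.54 CPM. Fibroblast-like cells had 2.56 and 0.616 CPM.

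**Figure D1:**
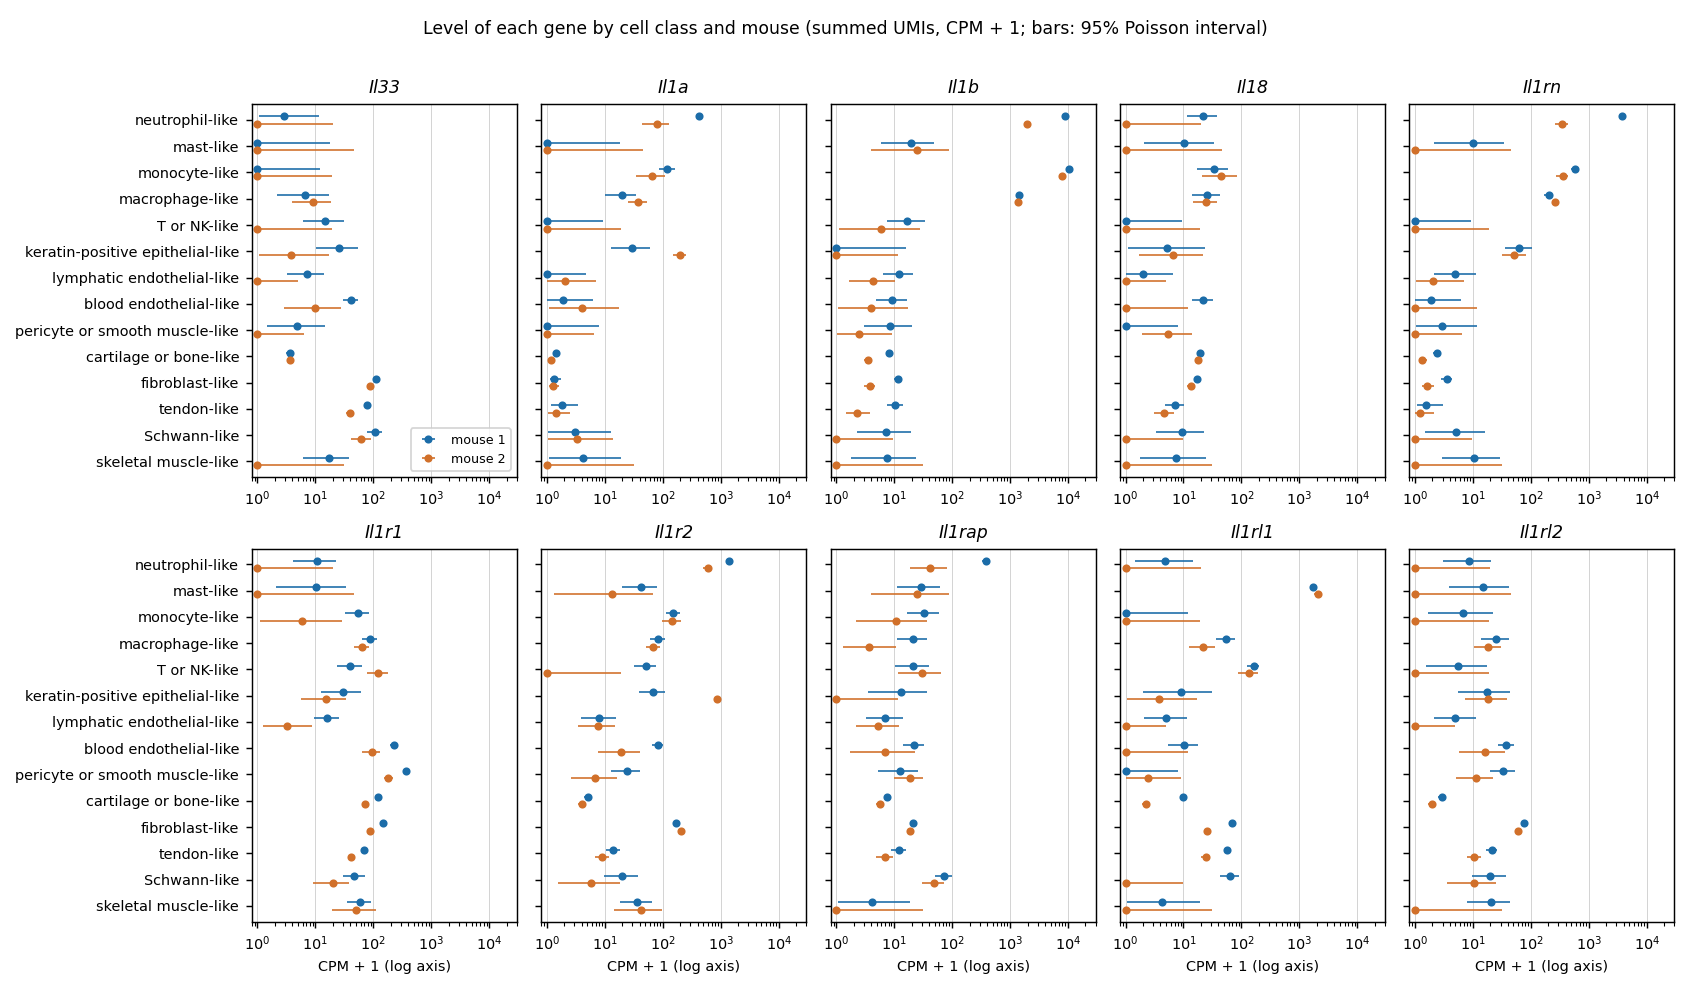
Level of each of the 10 members (one panel each) in the 14 classes with at least 20 cells in each mouse, as CPM + 1 of the summed UMIs on a log axis; blue points are mouse 1, orange points mouse 2, and bars are 95% Poisson intervals, which cover counting error only. Il33 and Il1rl2 stand highest in fibroblast-like cells, Il1b in monocyte-like and neutrophil-like cells, and Il1rl1 in mast-like cells at 1700 and 2080 CPM.

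The signalling receptor Il1r1 was found in stromal, vascular and some immune classes. Pericyte or smooth muscle-like cells had 368 and 180 CPM in mouse 1 and mouse 2, blood endothelial-like cells 222 and 92.5 CPM, fibroblast-like cells 144 and 84.9 CPM, and cartilage or bone-like cells 119 and 71.1 CPM. T or NK-like cells had 38.6 and 118 CPM, in mouse 2 above fibroblast-like cells, and macrophage-like cells had 85.4 and 62.4 CPM. Ranges of neighbouring classes in this order overlapped, and free RNA held 85.6 and 44.7 CPM. Cartilage or bone-like cells held 57.3% of all Il1r1 UMIs and fibroblast-like cells 32.3%. A UMI was seen in 38.8% and 35.7% of cartilage or bone-like cells, against 27.4% and 21.1% of fibroblast-like cells. After each cell was thinned to 1000 UMIs, those shares were 10.5% and 6.52%, against 12.4% and 7.75%, so the higher share in cartilage or bone-like cells did not remain at equal depth. Lymphatic endothelial-like cells had 15.1 and 2.18 CPM. Mast-like and neutrophil-like cells had 9.2 and 9.46 CPM in mouse 1, from 2 and 5 UMIs, and no UMI in mouse 2. There, 3 UMIs would be 36.2 and 15.4 CPM, so the order of these low classes is not settled.

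Il1r2, the decoy, had neutrophil-like and fibroblast-like sources. Neutrophil-like cells had 1370 and 592 CPM, seen in 81.2% and 85.7% of cells, and fibroblast-like cells had 169 and 202 CPM, seen in 26.2% and 30.9% of cells. The fibroblast-like class held 77.3% of Il1r2 UMIs, and its level lay above those of monocyte-like, macrophage-like and all lower classes in both mice. Monocyte-like cells had 152 and 142 CPM, tendon-like cells 13.1 and 8.02 CPM, and cartilage or bone-like cells were lowest at 4.06 and 3.05 CPM. Keratin-positive epithelial-like cells had 65.7 CPM in mouse 1 and 863 CPM in mouse 2, so its place in the order depended on the mouse. Free RNA held 83.7 and 90.2 CPM, above the 81.7 and 67.8 CPM of macrophage-like cells and the epithelial-like level of mouse 1.

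Il1rap, the chain shared by IL1R1, ST2 and the interleukin-36 receptor, was low in most classes. Neutrophil-like cells had 376 CPM in mouse 1 and 41.2 CPM in mouse 2, from 199 and 8 UMIs. Schwann-like cells had 71.3 and 47.2 CPM, fibroblast-like cells 19.8 and 18.1 CPM, and cartilage or bone-like cells 6.67 and 4.62 CPM, against 13.2 and 8.35 CPM in free RNA. Mast-like cells, which carried the most Il1rl1, had 27.6 and 24.1 CPM of its partner chain from 6 and 2 UMIs.

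Il1rl1 was highest in mast-like cells, at 1700 and 2080 CPM (1890 ± 264 CPM, SD, n = 2), with a UMI in 84.4% and 92.3% of cells. T or NK-like cells followed at 161 and 133 CPM, seen in 13.2% and 16.1% of cells, and each of these 2 classes lay above the next in both mice. Fibroblast-like cells had 67.3 and 24.5 CPM and, through their number, 52.7% of all Il1rl1 UMIs. Tendon-like cells had 56.3 and 23.0 CPM, against 28.2 and 10.8 CPM in free RNA. In Schwann-like cells, the 62.9 CPM of mouse 1 came from 30 UMIs in 3 cells, and mouse 2 had none. Monocyte-like cells had no Il1rl1 UMI.

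Il1rl2 was concentrated in fibroblast-like cells. Its level there was 76.7 and 59.6 CPM (68.2 ± 12.1 CPM, SD, n = 2), above every other class in both mice, and this class held 86.5% of its UMIs. Blood endothelial-like cells had 37.0 and 14.9 CPM, pericyte or smooth muscle-like cells 32.4 and 10.2 CPM, and cartilage or bone-like cells 1.95 and 0.953 CPM, against 21.3 and 17.6 CPM in free RNA.

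Levels were higher in mouse 1 in most classes for most members. Il1r1 and Il1rl2 were higher in mouse 1 in 13 of 14 classes each, Il1b and Il1rn in 12 of 13 classes with a UMI, and Il1rl1 in 11 of 13. Il1a was the most even, higher in mouse 1 in 6 of 11. Several of these classes had few UMIs in mouse 1 and 0 in mouse 2, such as skeletal muscle-like cells for Il1rl2 (6 and 0). The share of all genes higher in mouse 1 was not computed, so these counts are not shown to be a trait of the members. With 1 library for each mouse, the animal and the library cannot be told apart, and the mouse entered every fit as a block.

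The 2 most numerous classes, cartilage or bone-like and fibroblast-like cells, were set against each other by edgeR's quasi-likelihood test on summed UMIs with Benjamini-Hochberg adjustment, and a call is an adjusted p under 0.05. All 10 members passed the filter on low counts. Il33, Il1r2, Il1rl1, Il1rl2 and Il1rap were lower in cartilage or bone-like cells and no member was higher, so 5 of 10 were called, against a background of 23.4% of the 6424 genes tested (12.4% higher and 11.1% lower). Il1rl2 showed a log2 fold change of -5.43 ± 0.46 (SE, adjusted p = 1.69e-09) and Il1r2 one of -5.55 ± 0.94 (adjusted p = 3.7e-05). For Il33 it was -4.93 ± 0.51 (adjusted p = 3.47e-08), and for Il1rl1 -3.23 ± 0.63 (adjusted p = 0.000234). Il1rap differed least, at -1.60 ± 0.52 (adjusted p = 0.0227), and lost its call without the mouse block (adjusted p = 0.147) and in DESeq2 (adjusted p = 0.109). Il1r1, whose gene lies between Il1r2 and Il1rl2, had a log2 fold change of -0.05 ± 0.49 (adjusted p = 0.965). The median log2 fold change of the 10 members was -1.12, against -0.02 over all genes tested.

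Some further genes of the pathway differed between the same classes, where 23.4% of all genes tested were called. Of 18 tested genes of NF-kB feedback and interleukin-1 response, 3 were higher and 5 lower in cartilage or bone-like cells. Of the lists, only this one had a larger share called than all genes tested. Ccl7, a monocyte-attracting chemokine, had 23.8 and 10.3 CPM in cartilage or bone-like cells, against 1260 and 683 CPM in fibroblast-like cells (log2 fold change -5.70 ± 0.84, adjusted p = 4.85e-06). Lif, a cytokine of the interleukin-6 family, had 843 and 398 CPM in cartilage or bone-like cells, against 52.2 and 12.2 CPM in fibroblast-like cells (4.87 ± 0.84, adjusted p = 4.58e-05). Cxcl1, a neutrophil-attracting chemokine, had 225 and 232 CPM, against 1870 and 902 CPM. Among 14 signalling genes, the kinase gene Irak2 was higher in cartilage or bone-like cells, with 57.0 and 36.6 CPM against 9.92 and 7.67 CPM. Irak3, which encodes an inhibitory member of the same kinase family, was lower, with 38.4 and 25.8 CPM against 127 and 106 CPM, as was Ikbkg. Of 14 inflammasome and processing genes 3 were lower, among them Capn1, a calpain gene. Of 5 tested other members of the family 1 was higher, and of 8 genes of the interleukin-33 response 1 was lower.

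Macrophage-like cells had more of the interleukin-1 ligands and their antagonist than fibroblast-like cells, and less Il33 and Il1rl2. Of the 10 members, 3 were higher and 2 lower, against a background of 22.9% of all genes called (11.1% higher and 11.8% lower). Il1b had a log2 fold change of 8.26 ± 0.77 (adjusted p = 3.16e-09), Il1rn of 7.78 ± 0.89 (adjusted p = 1.2e-07) and Il1a of 6.49 ± 1.0 (adjusted p = 2.61e-05). Il33 was lower, at 5.57 and 8.14 CPM in macrophage-like cells against 109 and 85.2 CPM in fibroblast-like cells (-3.70 ± 0.64, adjusted p = 6.94e-05), and so was Il1rl2 (-1.69 ± 0.47, adjusted p = 0.00869), which lost its call without the mouse block (adjusted p = 0.0776). The median of the members was -0.38, against -0.06 over all genes.

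In the same comparison, where 22.9% of all genes tested were called, the lists also held called genes. Of 14 tested inflammasome and processing genes, 9 were higher in macrophage-like cells and none lower, and the list's median log2 fold change was 1.99. Nlrp3, which encodes an inflammasome sensor, had 139 and 203 CPM in macrophage-like cells, against 1.88 and 0.616 CPM in fibroblast-like cells (7.48 ± 0.88, adjusted p = 4.33e-07). Casp1, which encodes the cleaving protease, had 24.1 and 38.0 CPM, against 0.57 and 0.224 CPM. Of the interleukin-33 response list 4 of 8 were higher, among them Areg, which encodes the growth factor amphiregulin, with 126 and 180 CPM against 0.627 and 0.224 CPM. Ikbkb and Irak2 were higher and Irak3 lower among 14 signalling genes, and 4 of 18 response genes were higher, including Cxcl2 with 1970 and 3180 CPM against 199 and 76.3 CPM, and 1 was lower (Mmp3, a matrix metalloprotease gene). Of 5 other family members 3 were higher.

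Inside the macrophage-like class, Il1b was uneven between clusters. Cluster 14, led by the antigen presentation genes Cd74 and H2-Ab1, had 3590 and 3980 CPM in mouse 1 and mouse 2, and cluster 27 had 1520 and 1020 CPM. Cluster 28 had 130 and 52.3 CPM, cluster 29 had 126 and 0 CPM, and cluster 26, led by Pf4 and C1qb, had 0 and 103 CPM. Cluster 26 held 11 and 53 cells and cluster 27 held 43 and 13, so the mix of clusters in the class differed between the mice. Cluster 27 scored 3.36 for the macrophage markers and 2.86 for the monocyte markers. The pooled class entered the comparisons with fibroblast-like, neutrophil-like and mast-like cells, so their Il1b differences are not those of each cluster. With the limit at 2000 UMIs, cells were clustered and named anew. The mean Il1b level over mice of the class then named macrophage-like was 354 CPM, against 1400 CPM with the limit of 1000 UMIs. The parts of depth and of changed class membership in this difference were not tested.

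Neutrophil-like cells had higher levels than macrophage-like cells of the decoy, the antagonist and both interleukin-1 ligands. Of 10 members 5 were higher and 1 lower in neutrophil-like cells, against a background of 13.9% of genes called (7.77% higher and 6.13% lower). Il1r2 had 1370 and 592 CPM in neutrophil-like cells, against 81.7 and 67.8 CPM in macrophage-like cells (log2 fold change 4.19 ± 0.90, adjusted p = 0.00177). Il1rap had 376 and 41.2 CPM, against 20.4 and 2.71 CPM (4.89 ± 0.71, adjusted p = 1.66e-05). Il1a, Il1rn and Il1b had fold changes of 3.79 ± 0.82 (adjusted p = 0.00251), 3.05 ± 0.76 (adjusted p = 0.00632) and 1.98 ± 0.60 (adjusted p = 0.0246). Il1r1 was lower, at 9.46 and 0 CPM against 85.4 and 62.4 CPM (-3.05 ± 0.82, adjusted p = 0.0117). The median of the members was 0.87, against -0.26 over all genes.

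The mice differed in the size of several of these differences. The log2 ratio of CPM + 1 in neutrophil-like over macrophage-like cells was 4.05 in mouse 1 and 3.11 in mouse 2 for Il1r2, and 4.14 and 3.51 for Il1rap. For Il1b it was 2.66 and 0.54, for Il1rn 4.22 and 0.37, and for Il1a 4.46 and 1.06, so these 3 rest largely on mouse 1. The Il1rap ratio of mouse 2 came from only 8 UMIs in neutrophil-like and 2 UMIs in macrophage-like cells. In a fit of these 2 classes alone, only Il1rap kept its call (adjusted p = 0.0235). With doublets kept, Il1b (adjusted p = 0.152) and Il1r1 (adjusted p = 0.46) lost their calls, as they did without the mouse block (adjusted p = 0.053 and 0.0533), and Il1b did so at Leiden resolution 2 (adjusted p = 0.0646). The neutrophil-like cells of the mice differed in granule genes too: Elane, a granule protease made by immature neutrophils, had 0 CPM in mouse 1 and 5530 CPM in mouse 2, and Ctsg had 0 and 556 CPM. Of the 21 neutrophil-like cells of mouse 2, 6 held an Elane UMI and none of these held Il1b, against 73.3% of the other 15. Il1r2 was in 83.3% of the Elane-positive and 86.7% of the Elane-negative cells. The part of these cells in the difference between mice was not tested.

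Further genes of the pathway differed between neutrophil-like and macrophage-like cells, where 13.9% of all genes tested were called. Il36g, an agonist of the receptor encoded by Il1rl2, had 965 and 97.8 CPM in neutrophil-like cells, against 3.72 and 0 CPM in macrophage-like cells (8.68 ± 0.98, adjusted p = 9.12e-07). Il18rap, a chain of the interleukin-18 receptor, had 176 and 77.2 CPM, against 13 and 9.49 CPM (4.00 ± 0.53, adjusted p = 8.44e-06). These were the 2 genes called of 5 other family members. Irak3, Irak2 and Ikbkg were higher and none lower among 14 signalling genes, with Irak3 at 471 and 144 CPM against 27.9 and 17.6 CPM. Of 14 inflammasome and processing genes 5 were higher, including Nlrp3, Elane and Ctsg, and 1 was lower, Capn2. Elane and Ctsg had 0 CPM in both classes of mouse 1, so their calls rest on mouse 2. Of 18 response genes 4 were higher and 3 lower, and of 8 interleukin-33 response genes 4 were lower and none higher. Among the higher response genes, Csf3 pointed the other way in mouse 2, at 0 CPM in neutrophil-like against 28.5 CPM in macrophage-like cells.

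Mast-like cells had more of the interleukin-33 receptor than macrophage-like cells and less Il1b, Il1rn and Il1r1. Of 10 members 1 was higher and 3 were lower in mast-like cells, against a background of 10.8% of genes called (5.15% higher and 5.7% lower). Il1rl1 had 1700 and 2080 CPM in mast-like cells, against 53.9 and 20.3 CPM in macrophage-like cells (log2 fold change 5.65 ± 0.73, adjusted p = 3.6e-06). Il1b was lower, at 18.4 and 24.1 CPM against 1430 and 1370 CPM (-6.89 ± 0.86, adjusted p = 1.82e-06), as were Il1rn (-6.09 ± 1.17, adjusted p = 0.000663) and Il1r1 (-3.93 ± 1.02, adjusted p = 0.0101). Mast-like cells had 2 Il1rn UMIs in mouse 1 and 0 in mouse 2. Il1r1 lost its call with doublets kept (adjusted p = 0.229). Il1a had no UMI in mast-like cells and was not called (adjusted p = 0.166), and 3 UMIs there would be 13.8 and 36.2 CPM, against levels of 18.6 and 36.6 CPM in macrophage-like cells. The members' median was -3.08, against -0.19 over all genes.

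The cytokine gene Il4 had 469 and 567 CPM in mast-like cells, against 0 and 1.36 CPM in macrophage-like cells (9.0 ± 0.72, adjusted p = 6.36e-09), and the cytokine gene Il13 had 350 and 302 CPM, against 0 in both mice. Of 8 tested interleukin-33 response genes 3 were higher and 2 lower, the lower ones being Areg and Ccl17. Over all genes tested, 10.8% were called in this comparison. Ccl7 had 5010 and 6050 CPM, against 489 and 411 CPM (3.30 ± 0.75, adjusted p = 0.00364), while Cxcl2 had 27.6 and 24.1 CPM, against 1970 and 3180 CPM (-7.45 ± 1.23, adjusted p = 0.000107). Of 18 response genes 2 were higher and 3 lower in all. Of 14 inflammasome and processing genes 6 were lower, including Casp1 with no UMI in mast-like cells, and 1 was higher. Tollip was higher and Ikbkb lower among 14 signalling genes, and none of 5 other family members was called.

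Il1rl1 in the T or NK-like class stood mostly in cells with no UMI of Cd3e, a component of the T cell receptor complex. The 18 Il1rl1-positive cells of 136 in mouse 1 and 10 of 62 in mouse 2 held Gata3, a transcription factor of type 2 lymphocytes, in 88.9% and 70.0%, against 34.7% and 23.1% of the cells without Il1rl1. Il5, a cytokine of the type 2 response, was in 44.4% and 20%, against 2.54% and 1.92%. Cd3e went the other way, at 5.56% and 10.0%, against 38.1% and 55.8%. Il1rap was in 0% and 10.0%, against 5.08% and 5.77%, so the partner chain was scarcely seen in these cells at this depth. The cells belonged to cluster 17, which scored 4.68 for the T or NK markers and 3.02 for the markers of group 2 innate lymphoid cells, with Icos and Gata3 among its leading genes. Il5 reached 254 and 118 CPM in the class and had no UMI in mast-like cells. Cells of 1 library are not replicates and share their depth, so these shares are a description without a test.

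**Figure D2:**
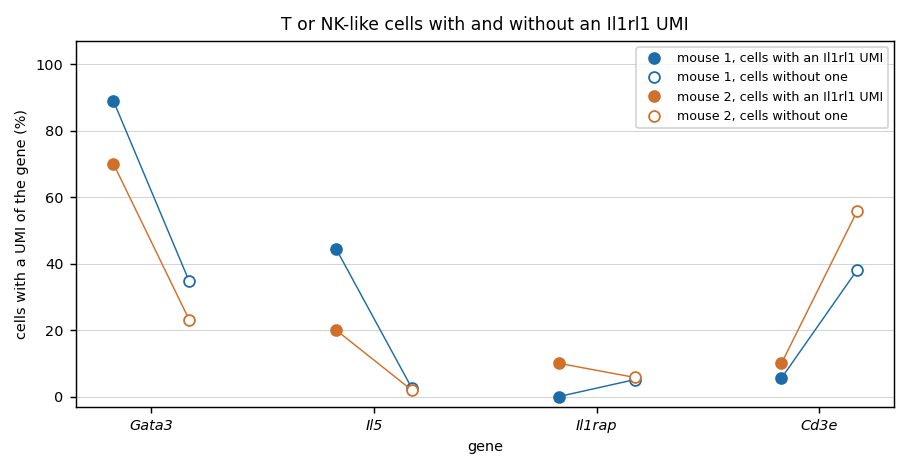
Percent of T or NK-like cells with a UMI of Gata3, Il5, Il1rap or Cd3e, for each mouse, among cells with an Il1rl1 UMI (filled, left) and without one (open, right). In both mice the points for Gata3 and Il5 lie higher among cells with Il1rl1, at 88.9% and 70.0% for Gata3, and those for Cd3e lie lower.

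Keratin-positive epithelial-like cells had more Il1a and Il1rn than fibroblast-like cells and less Il33, Il1r1 and Il1rl2. Of 10 members 2 were higher and 3 lower in the epithelial-like cells, against a background of 18.6% of genes called (10.4% higher and 8.23% lower). Il1a had 28.7 and 194 CPM in epithelial-like cells, against 0.342 and 0.28 CPM in fibroblast-like cells (log2 fold change 8.96 ± 1.0, adjusted p = 2.83e-07). Il1rn had 61.6 and 51.3 CPM, against 2.56 and 0.616 CPM (5.81 ± 0.87, adjusted p = 1.07e-05). Il33 was lower, at 24.6 and 2.85 CPM against 109 and 85.2 CPM (-2.80 ± 0.70, adjusted p = 0.00467), as were Il1r1 (-2.16 ± 0.67, adjusted p = 0.0215) and Il1rl2 (-1.73 ± 0.59, adjusted p = 0.0367). Without the mouse block Il1r1 and Il1rl2 lost their calls. The epithelial-like levels came from 6 and 1 UMIs of Il33 and 7 and 68 UMIs of Il1a. Il1r2 pointed in opposite directions, with log2 ratios of -1.35 in mouse 1 and 2.09 in mouse 2, and was not called (adjusted p = 0.0784). The class held 36 and 34 cells, and the members' median was -1.73, against -0.21 over all genes. Its keratin-positive epithelial markers summed to 7400 CPM in mouse 1 and 1760 CPM in mouse 2. Whether its cells were of the same kind in both mice was not tested.

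Of 5 other family members 4 were higher in keratin-positive epithelial-like cells than in fibroblast-like cells, where 18.6% of all genes tested were called. Il36g had 45.2 and 39.9 CPM, against 0.228 and 0 CPM (9.01 ± 0.99, adjusted p = 1.54e-07), and Il18r1, the ligand-binding chain of the interleukin-18 receptor, had 32.8 and 68.4 CPM, against 1.77 and 1.18 CPM. Cxcl5, a neutrophil-attracting chemokine, was the 1 response gene of 18 that was higher, at 677 and 2050 CPM against 10.0 and 1.29 CPM (9.05 ± 1.01, adjusted p = 5.56e-07). Among the 4 lower ones, Cxcl1 had 164 and 37.0 CPM, against 1870 and 902 CPM. Pycard, which encodes the inflammasome adaptor, and Casp8 were among 3 higher inflammasome and processing genes of 14, with 1 lower. Irak3 and Nfkb1 were lower among 14 signalling genes, and 1 of 8 interleukin-33 response genes was higher.

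Blood endothelial-like cells differed from fibroblast-like cells in 3 of 10 members, all lower, against a background of 12% of genes called (7.78% higher and 4.22% lower). Il33 had 39.8 and 8.95 CPM in blood endothelial-like cells, against 109 and 85.2 CPM in fibroblast-like cells (log2 fold change -2.16 ± 0.53, adjusted p = 0.00574). For Il1rl1 the change was -3.30 ± 0.84 (adjusted p = 0.008) and for Il1rl2 it was -1.65 ± 0.47 (adjusted p = 0.0163). In blood endothelial-like cells these levels came from 43 Il33 UMIs in mouse 1 and 3 in mouse 2, and from 10 and 0 Il1rl1 UMIs. Without the mouse block none of the 3 was called. The members' median was -1.14, against -0.09 over all genes. Sigirr, which encodes an inhibitory receptor of the family, had 8.33 and 44.8 CPM, against 0.171 and 0.056 CPM (7.01 ± 0.97, adjusted p = 1.18e-05), and was 1 of 2 called of 5 other family members, both higher. Csf3, the granulocyte growth factor gene, had 155 and 167 CPM, against 2.85 and 0.728 CPM (6.52 ± 0.79, adjusted p = 1.23e-06). It was the 1 higher of 18 response genes, while Mmp3 and Ccl7 were lower. Casp4 and Casp8 were higher among 14 inflammasome and processing genes and Irak2 among 14 signalling genes, and none of 8 interleukin-33 response genes was called.

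Lymphatic endothelial-like cells had less Il1r1, Il1rl2, Il33 and Il18 than blood endothelial-like cells. Of 10 members 4 were lower and none higher, against a background of 8.78% of genes called (2.37% higher and 6.41% lower). Il1r1 had 15.1 and 2.18 CPM in lymphatic endothelial-like cells, against 222 and 92.5 CPM in blood endothelial-like cells (log2 fold change -4.20 ± 0.65, adjusted p = 7.43e-05). Il1rl2 had 4.02 and 0 CPM, against 37.0 and 14.9 CPM (-3.68 ± 0.76, adjusted p = 0.00205). Il33 (-3.09 ± 0.79, adjusted p = 0.0124) and Il18 (-4.56 ± 1.33, adjusted p = 0.0296) were also lower, but Il18 had no UMI in either class of mouse 2. Without the cells of clusters found in 1 mouse, Il33 lost its call at -1.75 (adjusted p = 0.447), and Il18 lost its call too. The members' median was -2.14, against -0.01 over all genes. Of 18 response genes 5 were lower and none higher, with Il6 at 37.2 and 26.1 CPM against 521 and 460 CPM (-4.00 ± 0.77, adjusted p = 0.00102) and Csf3 at 24.1 and 7.62 CPM against 155 and 167 CPM. Casp8 was lower among 14 inflammasome and processing genes, 1 of 5 other family members was lower, and none of the 14 signalling or 8 interleukin-33 response genes was called.

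**Figure D3:**
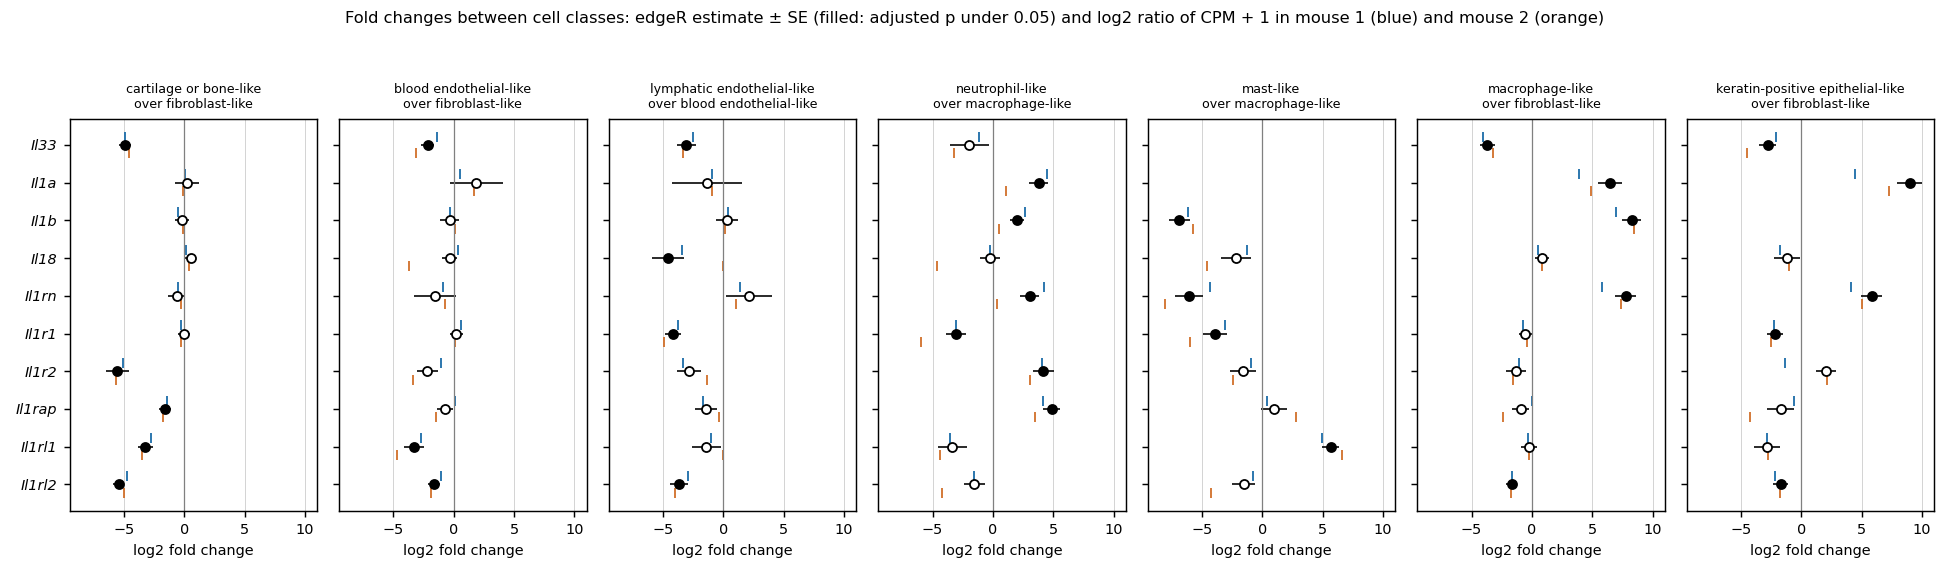
Log2 fold change of each member in the 7 comparisons of classes (one panel each), as edgeR's estimate with its SE; filled points have an adjusted p under 0.05 and ticks are the log2 ratio of CPM + 1 in each mouse. Members with no UMI in either mouse of a class are left blank, and a tick of a mouse with no UMI in a class is set by the 1 added. In cartilage or bone-like over fibroblast-like cells 5 members are lower and Il1r1 is at -0.05.

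The fibroblast-like class was not uniform in these receptors. Tested together over its clusters, 4 of 10 members differed, against a background of 26.7% of 9031 genes: Il1rl1 (adjusted p = 3.54e-09), Il1r1 (adjusted p = 1.74e-06), Il1rl2 (adjusted p = 2.35e-06) and Il18 (adjusted p = 0.0366). Il18 was not called without the mouse block (adjusted p = 0.16). Clusters are called by their numbers and leading genes. In mouse 1 and mouse 2, Il1rl1 had 124 and 68.4 CPM in cluster 0 (Has1, Fbln2, Cilp) and 124 and 58.9 CPM in cluster 5 (Ifi205, Has1, Veph1). It had 5.98 and 1.91 CPM in cluster 2 (Cilp, Fbln2, Aldh3a1) and 2.72 and 0.572 CPM in cluster 6 (Col3a1, Dpep1, Scara5). Clusters 0 and 5 thus lay above the others in both mice, and tendon-like cluster 9, at 104 and 55.2 CPM, lay beside them while tendon-like cluster 10 had 1.85 and 2.15 CPM.

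The other receptors shared this arrangement over the same clusters only in part. Il1r1 was highest in cluster 5, at 301 and 188 CPM, and 73.1 and 61.4 CPM in cluster 8 (Col3a1, Col1a1, Tnxb). Il1rl2 was highest in cluster 5 too, at 121 and 96.7 CPM, with 93.6 and 93.3 CPM in cluster 6 and 32.9 and 32.1 CPM in cluster 2. Il1r2 had 274 and 309 CPM in cluster 6 and 101 and 174 CPM in cluster 0. It was not called among clusters (adjusted p = 0.644), although DESeq2, fitted to these clusters alone, called it (adjusted p = 0.00255). Il33 ranged over 78.9 to 144 CPM in mouse 1 and 67.6 to 104 CPM in mouse 2. It was not called (adjusted p = 0.345), although DESeq2, fitted in the same way, called it (adjusted p = 0.0437).

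Among cartilage or bone-like clusters 2 of 10 members differed, against a background of 27.8%. Il1r1 (adjusted p = 1.75e-07) had 192 and 101 CPM in cluster 3 (Acan, Chad, Fxyd3), 166 and 89.7 CPM in cluster 4 (Col8a1, Col2a1, Chad) and 40.8 and 24.8 CPM in cluster 11 (Col2a1, Mgp). Its order over clusters was the same in both mice. Il1rl1 (adjusted p = 0.0167) had 19.7 and 2.73 CPM in cluster 4 and lost its call without the mouse block (adjusted p = 0.351). Signalling genes differed among clusters in 7 of 16 cases in fibroblast-like and 8 of 16 in cartilage or bone-like cells. Response genes did so in 13 of 19 and 11 of 19, against 26.7% and 27.8% of all genes tested.

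**Figure D4:**
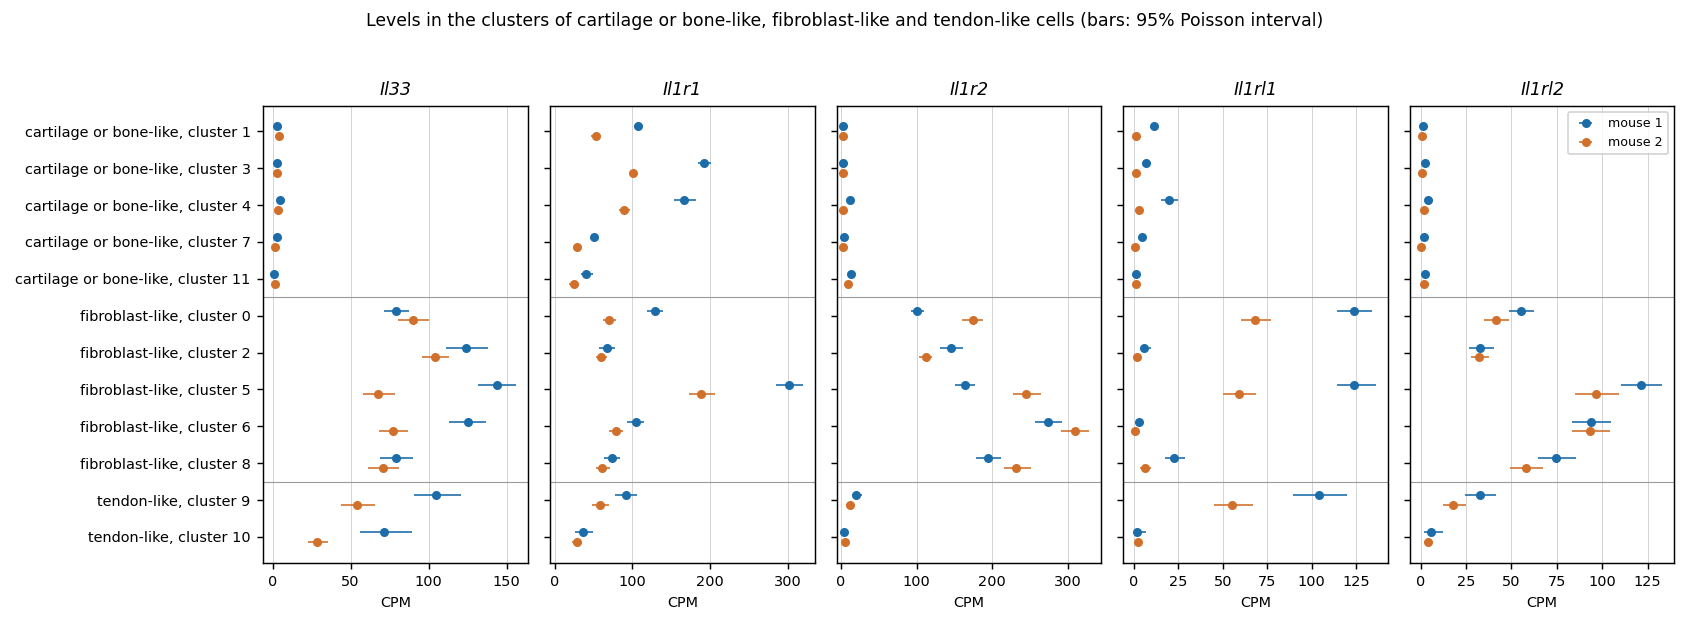
Level in CPM of Il33, Il1r1, Il1r2, Il1rl1 and Il1rl2 (one panel each) in cartilage or bone-like clusters 1, 3, 4, 7 and 11, fibroblast-like clusters 0, 2, 5, 6 and 8 and tendon-like clusters 9 and 10; points are the 2 mice and bars 95% Poisson intervals. Il1rl1 stands at 124 CPM in clusters 0 and 5 of mouse 1 and at 5.98 and 2.72 CPM in clusters 2 and 6.

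Pairs of members were also counted in the same cells. In fibroblast-like cells of mouse 1 and mouse 2, Il1r2 was in 33.2% and 35.7% of cells with Il1r1, against 23.6% and 29.6% of cells without it. Il1rl2 was in 25.5% and 24.4% of cells with Il1rl1, against 17.5% and 16.9% of cells without it. Il1rap was in 8.67% and 8.26% of cells with Il1r1, against 4.41% and 5.19% of those without. The receptor of interleukin-33 showed no such excess beside its ligand, since Il1rl1 was in 5.89% and 1.66% of cells with Il33, against 6.04% and 3.33% of cells without. In macrophage-like cells, Il1rn was in 32.7% and 57.4% of cells with Il1b, against 14.9% and 10.2% of cells without. Genes of a cell share its depth and its cluster, and the parts of both in these shares were not tested.

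Genes whose pattern over the 14 classes was most like each member were found by Pearson's r of log2(CPM + 1), taking the lower r of the 2 mice among 7593 genes, as a description in which all values of a mouse share a library. Il1b was closest to Cyp4f18 (0.959), Clec4n, Mefv (0.953), Clec4e (0.95) and Nlrp3 (0.946), the last encoding the sensor of its processing. Il1a was closest to Gm14023 (0.925), whose annotation overlaps it, and to Il1rn (0.917). Il1rn was closest to Themis2 (0.921). Il33 was closest to Dclk1 (0.811) and Abca8a (0.787), Il1rl2 to Cd248 (0.781) and Il1r1 to Nudt6 (0.73). Il1rl1 was closest to 4931406G06Rik (0.815) and Espn (0.811) and had Il13 (0.738) among its 5, while Il1rap was closest to Lyst (0.821), Il1r2 to Pgd (0.742) and Il18 to Sowahc (0.703).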

How the data were processed

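The authors deposited gene-by-barcode counts for each of 2 libraries; STAR, Cell Ranger 7.0.0 and build GRCm39 are named in the submitters' processing notes, with no role given. Counts were taken as UMIs, and intervals cover counting error only. Barcodes with at least 1000 UMIs, at least 300 genes and at most 15% mitochondrial UMIs were kept. Scrublet called 0 doublets in either library, so the highest scores were removed at 0.8% per 1000 cells (1599 cells of mouse 1, 750 of mouse 2). UMIs in kept cells were 66042878 in mouse 1 and 63081641 in mouse 2, so 3 UMIs over all cells are 0.0454 and 0.0476 CPM. Genes were split by a hash of their IDs. One group of genes, markers included, was clustered (scanpy 1.11.5, 2000 variable genes, 30 components, 15 neighbours, Leiden resolution 1), and the other, with all members and pathway lists, was held out for tests. A cluster in which 2 marker lists led nearly equally was clustered once more; this and the naming limits (score of at least 1.5, lead of at least 0.25, 3 of 5 markers in at least 10% of cells) were set after clusters were seen. Summed counts per mouse and class were tested with edgeR 4.0.16 (TMM, quasi-likelihood, mouse as block, 28 sums, 13 residual degrees of freedom); the block pairs sums of 1 animal. Adjusted p-values are Benjamini-Hochberg over the 6424 held-out genes tested (9031 among clusters). DESeq2 1.42.0 was an alternative. Among clusters it was a likelihood ratio test fitted to the clusters of the class alone, so method and fit changed together. With 2 mice, p-values measure how class or cluster differences vary between these libraries, with the spread estimated over all sums of the fit. A shift of a library common to all classes is taken off by the block.

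The members and lists were chosen with earlier results of these data known. Named were all members, per list and comparison up to 4 called genes with at least 20 CPM in a class by size of fold change, and the 5 most like genes of each member, of which some are printed. Elane and Ctsg appear as list members, and the split by Elane was chosen after its values were seen, as were the pairs of genes in cells.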

Additional observations from a re-analysis of the deposited data

How the results depend on the processing

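Counts of called members stayed within 1.5 times under most alternatives, and no called fold change reversed; Il18 in lymphatic over blood endothelial-like cells had 0 UMIs in both classes of mouse 2. Exceptions were as follows. Without the replicate block, calls were 0 instead of 3 for blood endothelial-like over fibroblast-like cells, 3 instead of 5 for keratin-positive epithelial-like over fibroblast-like cells and 1 instead of 2 among cartilage or bone-like clusters. For lymphatic over blood endothelial-like cells, calls were 2 instead of 4 with doublets kept and 2 without the cells of clusters found in 1 mouse, an alternative added after seeing the data. With only the compared classes in the fit, neutrophil-like over macrophage-like cells gave 1 instead of 6, and cartilage or bone-like clusters 6. Those clusters also gave 4 with at least 2000 UMIs, 6 with doublets kept, 4 with no filter and 4 in DESeq2, which gave 7 instead of 4 among fibroblast-like clusters. The causes were not tested. Taking off the free RNA level moved 13 of 30 levels by more than the SD between mice. A class can lie far under that level: fibroblast-like cells had 10.5 and 2.8 CPM of Il1b, free RNA 183 and 81.2 CPM. Of 32 called fold changes, 22 kept their call without the block, 27 with doublets kept and 30 in DESeq2. Genes called over all tested moved beyond 1.5 times in these cases. Without the block they were 503 instead of 771 (blood endothelial-like over fibroblast-like), 341 instead of 564 (lymphatic over blood), 1469 instead of 2412 (fibroblast-like clusters) and 1604 instead of 2513 (cartilage or bone-like clusters). With the compared classes alone they were 6049 instead of 1506 (cartilage or bone-like over fibroblast-like, 2645 with no filter), 167 instead of 893 (neutrophil-like over macrophage-like), 2342 instead of 1469 (macrophage-like over fibroblast-like), 4776 and 5379 (the 2 sets of clusters). At 2000 UMIs they were 898 (lymphatic over blood) and 3807 (cartilage or bone-like clusters). DESeq2's scaling moved the median log2 fold change by 0.3 in neutrophil-like and 0.25 in mast-like over macrophage-like cells: higher calls were 735 of 1062 against 499 of 893, and 555 of 857 against 331 of 697. The limit of 2000 UMIs left under 20 cells for the neutrophil-like, mast-like and epithelial-like comparisons, as did leaving out shared barcodes for neutrophil-like cells, and these were not run. Leaving out a mouse leaves no test: of the 32 called fold changes, the log2 ratio of CPM + 1 in the remaining mouse lay within 1 SE of the fitted value for 14 without mouse 1 and 19 without mouse 2, and kept its sign for 31 and 32. Levels of few UMIs (Il1rap in mast-like cells, for example) are limited by depth.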

Other observations

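Dendritic-like cells, 11 in mouse 1 and 13 in mouse 2 and too few for the comparisons, also carried Il1b, at 3850 and 4370 CPM with a UMI in 54.5% and 61.5% of cells. Their Il1r2 level was 272 and 335 CPM, and their Il1rn level was 24.8 and 120 CPM. Il18 and Il33 had no UMI in these cells.

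The receptor chains of interleukin-18 were found in classes with few or no Il18 UMIs. Il18r1 had 241 and 197 CPM and Il18rap 211 and 172 CPM in T or NK-like cells of mouse 1 and mouse 2, a class with no Il18 UMI. Mast-like cells had Il18r1 at 69.0 and 48.3 CPM and no Il18rap UMI, while neutrophil-like cells had Il18rap at 176 and 77.2 CPM. Il18 itself had 20.8 CPM in neutrophil-like cells of mouse 1, from 11 UMIs, and 2 UMIs in mast-like cells of mouse 1. In mouse 2 neither class had an Il18 UMI. In T or NK-like cells 3 UMIs would be 6.81 and 14.8 CPM, so a low Il18 level there could go unseen.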
